A study of Mus musculus with 18 samples.

Results

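The 9 T cell identity genes Gata3, Tcf7, Bcl11b, Cd3e, Cd3d, Cd3g, Cd4, Cd8a and Lck were examined in ChIP-seq peak lists of cohesin (RAD21) and its loader (NIPBL) from mouse pro-B cells. The genes were chosen by name, as 9 of the 22350 protein-coding genes annotated on the autosomes and X (GENCODE vM1, mm9). For each gene, all peaks within 5 kb of its most 5′ annotated start, in its body and within 50 kb on either side were taken from each list. The libraries came from a v-Abl transformed pro-B line, in which the v-Abl kinase holds B cell precursors in culture as an immature, dividing line. All cells shared a JH deletion, RAG2 deficiency, an Emu-Bcl2 transgene and expression of dCas9, a nuclease-dead Cas9. All had spent 4 days in 3 uM STI-571, which inhibits the Abl kinase. RAD21 was mapped in block cells, which also expressed Sg1-sgRNA (n = 2), and in dCas9 control cells without it (n = 2). It was also mapped in Ig2b-del/del cells (n = 3) and in Ig2bwt cells, whose labelled genotype is that of the control (n = 3). NIPBL was mapped in block (n = 2) and control (n = 2) cells. Each group is 1 transformed line as far as the labels tell, and nothing in them says that replicates were separate cultures, so p-values measure only the spread between these samples.

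Cohesin is a ring that extrudes chromatin loops and stops at sites bound by CTCF, and NIPBL loads it and drives its movement, often from active promoters and enhancers. Gata3, Tcf7 (TCF-1) and Bcl11b are transcription factors that set and hold T cell fate. Cd3e, Cd3d and Cd3g encode the signalling chains of the T cell receptor complex, Cd4 and Cd8a encode its coreceptors, and Lck encodes the kinase that the coreceptors bring to it. These genes define another lineage than the one the line comes from, and a called peak is a place of enrichment, not a measure of expression. The lineage label of the line was compared with peaks near the starts of 9 B lineage genes (Pax5, Ebf1, Cd79a, Cd79b, Vpreb1, Igll1, Blnk, Foxo1 and Ikzf3). Of these, 8 had a RAD21 peak there in all 10 RAD21 lists and 9 had a NIPBL peak in all 4 NIPBL lists, where 23.4% and 51.7% of all genes did.

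RAD21 lists held 44783 to 82776 peaks over 11.6 to 34.4 Mb and NIPBL lists 63153 to 123573 peaks over 20.3 to 29.8 Mb. Numbers of reads were not in the lists, so depth was unknown and a missing peak is a missing call, not shown absence. The fold of each peak is the authors' own enrichment over background. Folds were compared within a list or side by side, since the lists were not on 1 scale. Medians over the 10 RAD21 lists and means over the 2 controls pool these scales. They were used to order sites and genes, and the strongest site of a gene is the one with the highest median.

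In mm9 the transcription factor genes lie at chr2:9778705-9811661 (Gata3), chr11:52065873-52096681 (Tcf7) and chr12:109148613-109241812 (Bcl11b), all on the minus strand. Cd3e (chr9:44806826-44817673, minus), Cd3d (chr9:44789876-44795135, plus) and Cd3g (chr9:44777655-44788514, minus) form 1 cluster. The coreceptor genes are at chr6:124814710-124838239 (Cd4, minus) and chr6:71323421-71329165 (Cd8a, plus), and Lck is at chr4:129225588-129250885 (minus). The most 5′ start is not the only one. At Gata3 it belongs to longer transcripts, and the protein-coding transcript Gata3-001 starts 11.4 kb further downstream. At Lck it is the distal start, and the proximal coding transcripts start 15.3 kb further downstream; these 2 Lck promoters are known from T cells, where thymocytes use mainly the proximal one.

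The sequences below are those the results turn on: the strongest RAD21 site near Gata3, Tcf7, the Cd3 genes and Cd8a that was called in all 10 lists, the near-start RAD21 site called in the most lists at Gata3 and at Lck, and the bases just before the starts of Tcf7, which had NIPBL but no RAD21 there, and Cd3e, which had neither. Each is 201 bases of mm9, 5′ to 3′ on the strand of the named gene, centred on the stretch that the most lists share or, for the 2 start sequences, ending at the base before the start. Capitals mark CCNNNAGNNGGC, a 12-letter core of the CTCF consensus, searched on both strands. Overlapping matches were counted apart. The window before the Tcf7 start lies in the span of A630014C17Rik but in no annotated exon. The Tcf7 window 20.9 kb downstream also lies in the non-coding gene Gm16953, again in no exon.
Gata3, 10.3 kb downstream of the start, in an intron (chr2:9801295-9801495, minus strand): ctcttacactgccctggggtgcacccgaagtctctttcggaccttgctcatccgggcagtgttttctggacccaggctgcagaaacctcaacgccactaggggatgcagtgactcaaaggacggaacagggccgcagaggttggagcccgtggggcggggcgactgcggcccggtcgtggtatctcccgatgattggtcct
Gata3, near the start, in an intron of it and in an exon of a non-coding transcript of 9230102O04Rik (chr2:9810955-9811155, minus strand): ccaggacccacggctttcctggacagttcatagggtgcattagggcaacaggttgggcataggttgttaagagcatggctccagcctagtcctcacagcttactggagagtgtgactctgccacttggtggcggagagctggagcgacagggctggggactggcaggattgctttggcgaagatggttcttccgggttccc
Tcf7, 20.9 kb downstream, in an intron (chr11:52075565-52075765, minus strand): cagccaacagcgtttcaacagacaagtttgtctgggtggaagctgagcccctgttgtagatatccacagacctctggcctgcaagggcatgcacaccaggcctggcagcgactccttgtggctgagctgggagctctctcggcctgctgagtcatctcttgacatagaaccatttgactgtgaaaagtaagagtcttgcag
Tcf7, before the start, in a processed transcript of A630014C17Rik (chr11:52096682-52096882, minus strand): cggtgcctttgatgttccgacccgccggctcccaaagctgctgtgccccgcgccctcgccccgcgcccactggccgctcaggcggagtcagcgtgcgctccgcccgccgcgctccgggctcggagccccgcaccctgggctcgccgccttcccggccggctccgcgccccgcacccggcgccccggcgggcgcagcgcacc
Cd3e, 13.4 kb upstream, intergenic (chr9:44830995-44831195, minus strand): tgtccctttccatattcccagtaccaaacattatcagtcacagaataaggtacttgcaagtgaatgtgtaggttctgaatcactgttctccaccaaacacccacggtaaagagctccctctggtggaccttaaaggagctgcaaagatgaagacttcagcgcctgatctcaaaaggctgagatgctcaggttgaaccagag
Cd3e, before the start, intergenic (chr9:44817674-44817874, minus strand): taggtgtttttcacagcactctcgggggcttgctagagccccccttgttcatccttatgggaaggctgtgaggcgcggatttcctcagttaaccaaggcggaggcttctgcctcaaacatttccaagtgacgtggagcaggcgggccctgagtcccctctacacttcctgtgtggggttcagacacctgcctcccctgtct
Cd8a, 25.9 kb downstream, in Rmnd5a and 12 coding bases of it (chr6:71349276-71349476, plus strand): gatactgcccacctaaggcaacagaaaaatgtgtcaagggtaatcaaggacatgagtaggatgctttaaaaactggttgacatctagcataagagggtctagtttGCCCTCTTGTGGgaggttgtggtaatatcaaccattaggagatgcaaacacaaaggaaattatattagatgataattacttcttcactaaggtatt
Lck, 3.5 kb upstream, over 84 coding bases of Fam167b (chr4:129254456-129254656, minus strand): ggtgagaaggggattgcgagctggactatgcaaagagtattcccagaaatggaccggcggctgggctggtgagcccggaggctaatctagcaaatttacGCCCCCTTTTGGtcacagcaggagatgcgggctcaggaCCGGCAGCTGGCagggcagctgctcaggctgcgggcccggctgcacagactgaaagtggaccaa

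The first question was whether cohesin lay at the starts of T cell genes in these pro-B cells. In RAD21 block cells 2 of the 9 genes, Gata3 and Lck, had a peak within 5 kb of the start in both libraries, where 41.3% of all genes did. The same 2 genes did so in both RAD21 control libraries (34.3% of all genes) and in all 3 Ig2b deleted libraries (32.1%). In the Ig2b wild type libraries Cd3d and Lck did (27.3%). Over all 10 RAD21 lists Lck alone among the 9 had a peak in every list (23.4% of all genes), and Tcf7, Cd3e, Cd3g, Cd4 and Cd8a had none in any (5 of 9, against 37.6% of all genes). Counted from any annotated transcript start, Gata3, Cd3g and Lck had RAD21 in every library of each of the 4 RAD21 groups (33.6 to 47.4% of all genes by group), and Cd3d in those of Ig2b wild type. For Cd3g that start is one of a retained-intron transcript at the 3′ end of the gene.

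Gata3 had a RAD21 peak 559 to 634 bp downstream of its start in 9 of 10 lists. Its fold was 6.86 and 5.41 in the block libraries, 5.84 and 5.94 in the controls, 4.23, 4.70 and 4.43 in the Ig2b deleted libraries, and 3.56 and 3.50 in Ig2b wild type replicates 2 and 3. Ig2b wild type replicate 1 had no peak there. The peak was 84 to 339 bp wide. The block and control folds overlapped.

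Lck had a RAD21 peak 3.5 kb upstream of its start, at Fam167b, with a fold of 3.92 and 7.99 in the block libraries, 4.48 and 9.82 in the controls, 6.50, 6.45 and 6.44 in the Ig2b deleted libraries and 5.44, 5.82 and 4.95 in the Ig2b wild type libraries. In the dCas9 experiment both replicate 2 libraries were higher than both replicate 1 libraries, and block and control overlapped. Deleted folds lay above wild type folds without overlap, as at 38.2% of all RAD21 sites called in every list. A second RAD21 site near the start, 2.0 kb upstream, was called in 8 of 10 lists at a fold of 3.02 to 4.55, and control replicate 1 and Ig2b wild type replicate 2 lacked it. The peak at 3.5 kb lies within 5 kb of the start of Fam167b as well and cannot be assigned to 1 of the 2 genes.

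Cd3d had a RAD21 peak in 7 of 10 lists, 4684 to 4876 bp downstream of its start and so near the 3′ end of this short gene (5.26 kb). Its fold was 4.51 in block replicate 2, 5.35 in control replicate 2, 3.53 and 3.24 in Ig2b deleted replicates 1 and 2, and 3.53, 3.67 and 3.94 in the Ig2b wild type libraries. Both replicate 1 libraries of the dCas9 experiment and Ig2b deleted replicate 3 lacked it. Bcl11b had a single RAD21 peak within 5 kb, of fold 3.27, in block replicate 1, 4629 bp downstream of its start. The 5 kb limit mattered at Cd3e: a RAD21 site called in all 10 lists (fold 3.33 to 7.71) had its nearest edge 5.2 kb upstream of the start and so did not count, while the Cd3d site (3.24 to 5.35) began 4.2 kb from its start and did.

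**Figure D1:**
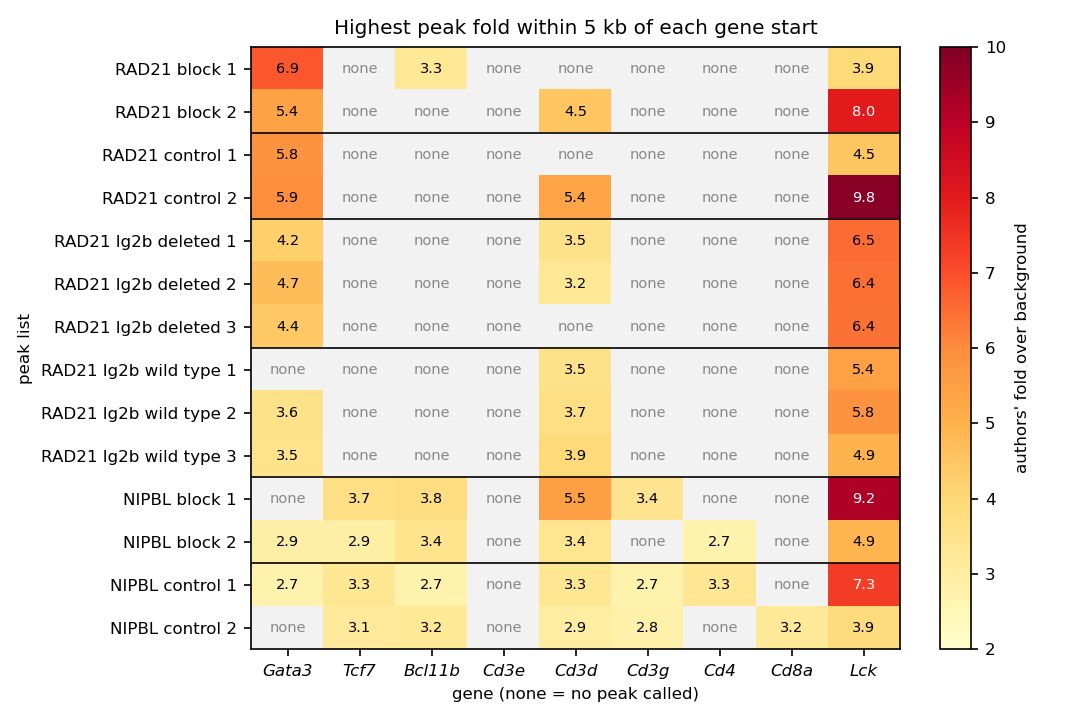
Highest authors' fold of any peak within 5 kb of the start of each T cell identity gene (columns) in each of the 14 lists (rows, with block above control and Ig2b deleted above wild type); grey cells had no called peak. RAD21 recurs at Gata3, Cd3d and Lck, NIPBL in all 4 lists at Tcf7, Bcl11b, Cd3d and Lck, and Cd3e has neither.

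In the main setting NIPBL lay near the starts of more of these genes than RAD21 did, as it did over all genes. At a −log10 q of at least 3 this did not hold, with 1 member in NIPBL control and 2 in RAD21 control. In the NIPBL block libraries 4 of the 9 genes had a peak in both (Tcf7, Bcl11b, Cd3d and Lck; 57.8% of all genes), and in the controls 5 did, with Cd3g added (56.5%). Those 4 genes had NIPBL in all 4 lists (51.7% of all genes), and Cd3e was without it in every list (1 of 9, against 20.5%). At Cd3d the site in all 4 lists lay 4.8 kb downstream of the start, near the 3′ end of the gene (fold 2.94 to 5.47). Within 1 kb of the start, Cd3d did not have NIPBL in every library of either group.

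At Tcf7, where RAD21 was called in 0 of 10 lists, a NIPBL site over the start itself was in all 4 lists, at a fold of 2.69 to 3.67. The 2.69, in block replicate 2, was the lowest fold of that list. At a −log10 q of at least 3 only Lck had near-start NIPBL in every library of either group. With lists matched in length Tcf7 had it in both control libraries but not in both block libraries. The highest near-start fold was 3.67 and 2.90 in the block libraries and 3.31 and 3.14 in the controls, so block and control overlapped. The Tcf7 start is rich in CpG: the 201 bases centred on it held 35 CpG, more than 98.2% of all starts, where the median start had 10. The starts of Cd3e (3 CpG), Cd3d (1) and Cd3g (1) were poor in them. Those of Gata3 (15), Bcl11b (7), Lck (7), Cd4 (6) and Cd8a (4) lay between. Near-start NIPBL was in all 4 lists at Cd3d, Bcl11b and Lck and in 2 at Gata3. A link of CpG to NIPBL was not tested.

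Bcl11b had NIPBL peaks near its start with a fold of 3.78 and 3.44 in the block libraries and 2.74 and 3.19 in the controls. The highest near-start fold was higher in both block libraries than in both controls at 57.6% of the 11551 genes with NIPBL there in all 4 lists, Bcl11b among them. The highest Bcl11b peak lay 1489 bp downstream in block replicate 1 and 736 to 1704 bp upstream in the 3 other lists, so no single near-start site recurred in all 4. Some NIPBL peaks near these starts had the lowest fold of their list. It was 2.74 in control replicate 1 at Gata3, Bcl11b and Cd3g, 2.78 in control replicate 2 at Cd3g and 2.69 in block replicate 2 at Tcf7 and Cd4. Cd3g and Cd3d start close together on opposite strands, so a NIPBL peak at the Cd3g start also counts for Cd3d.

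Lck had the highest NIPBL fold near a start of the 9 genes in every NIPBL list: 9.20 and 4.91 in the block libraries and 7.34 and 3.86 in the controls. Block and control overlapped, and each replicate 1 library was above its group's replicate 2 library. These peaks were at the same Fam167b site as RAD21. Gata3 had NIPBL near its start in 2 of 4 lists, Cd4 in 2 and Cd8a in 1, at folds of 2.69 to 3.31.

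**Figure D2:**
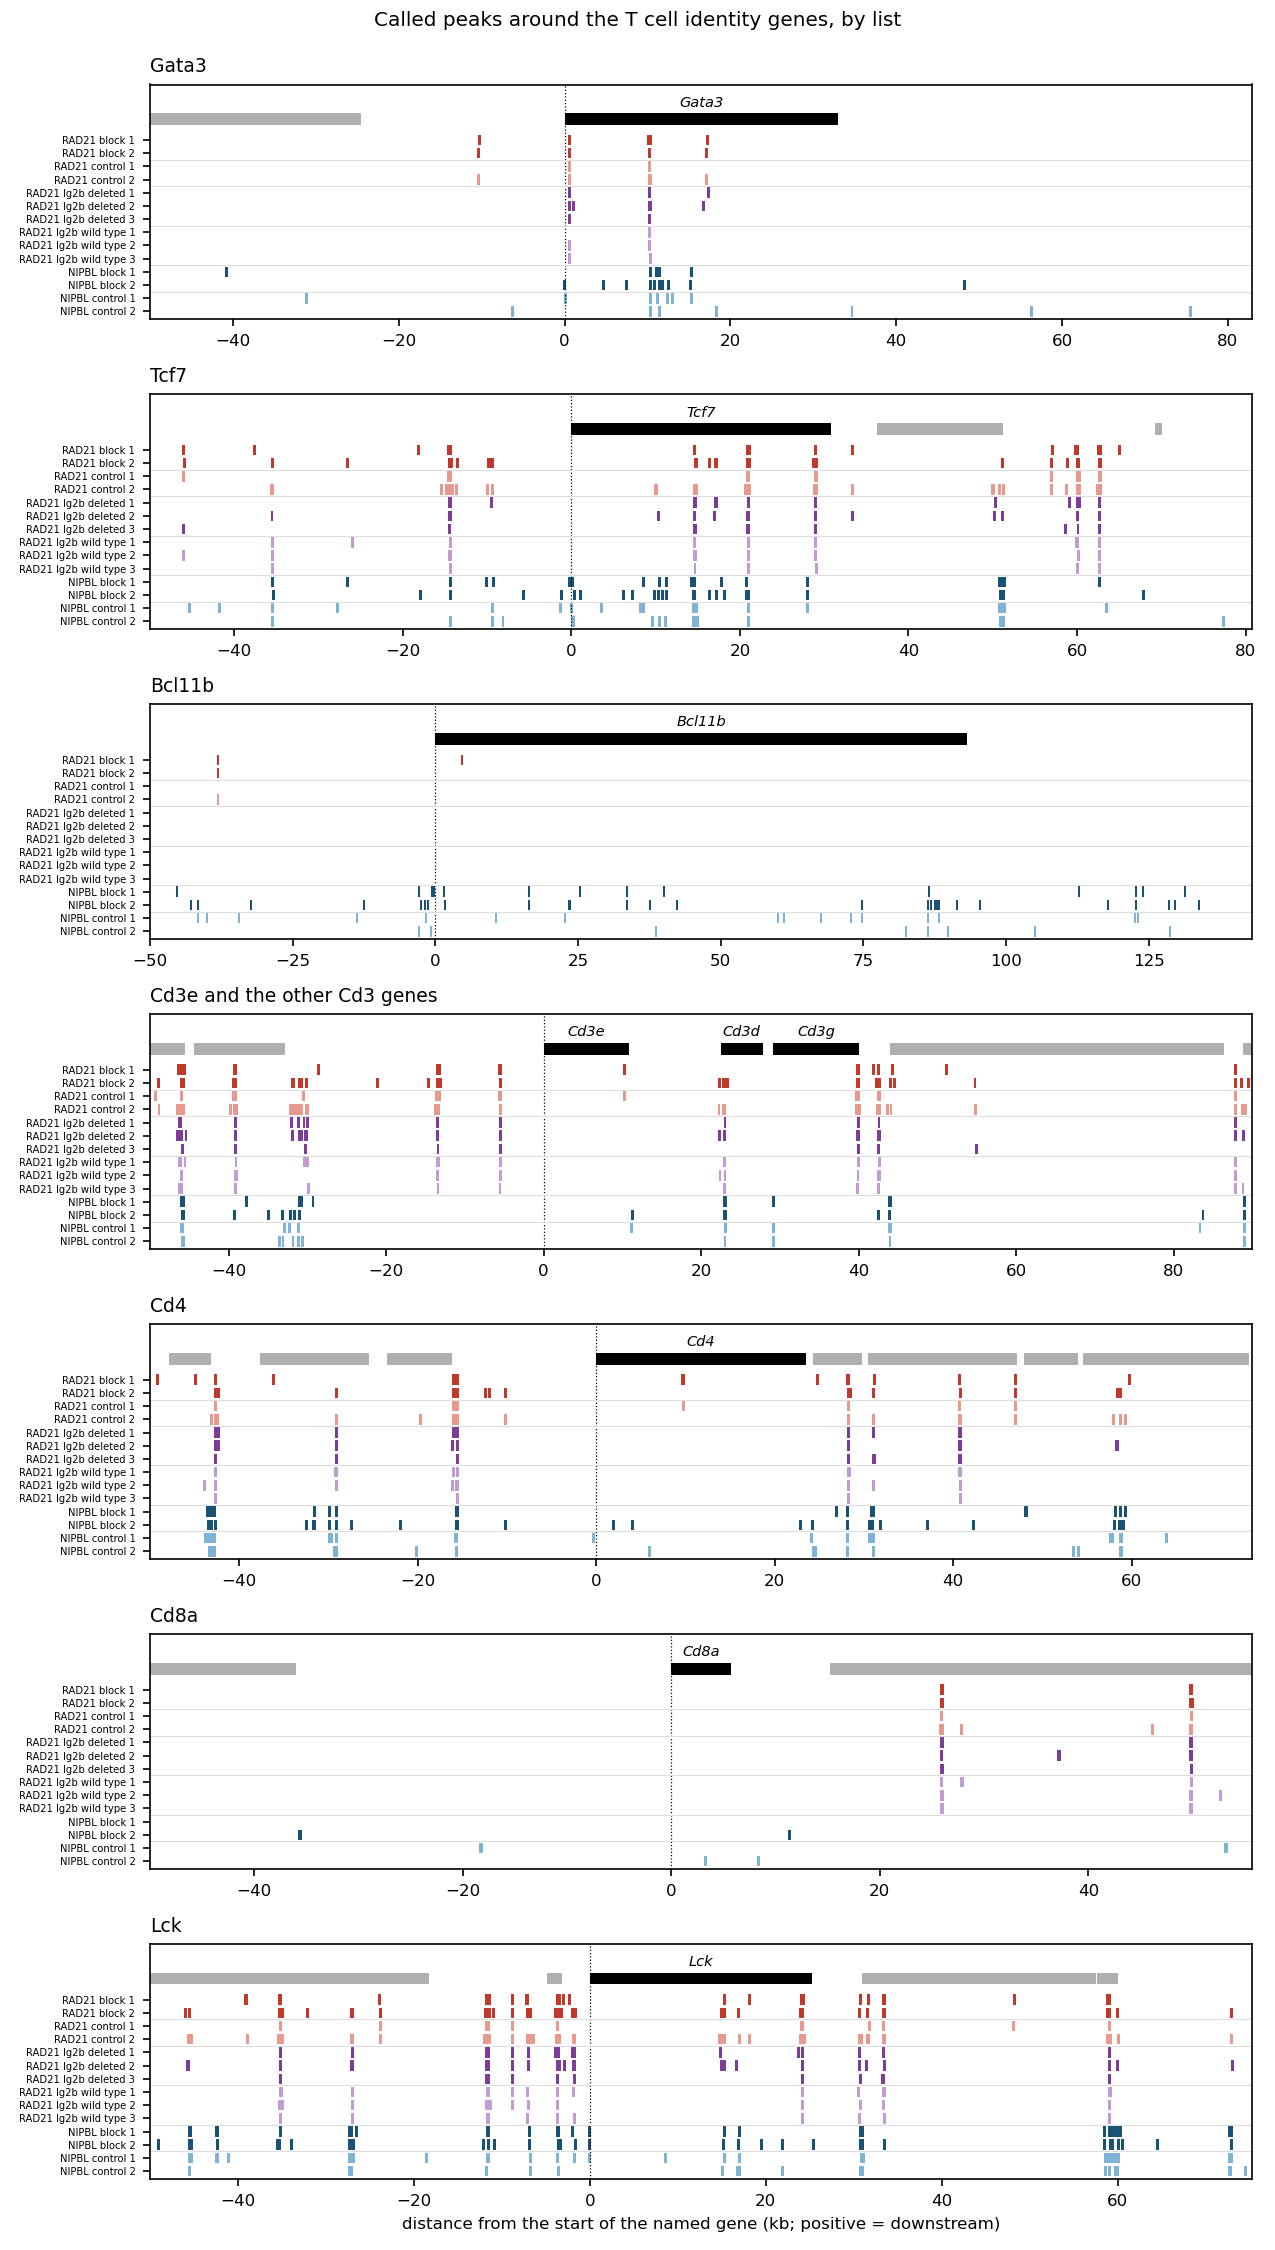
Called peaks (bars) around the T cell identity genes in the 14 lists, by distance in kb from the start of the named gene, with positive values downstream; the member genes are black and other protein-coding genes grey, and narrow peaks are drawn at a minimum width. Columns of bars that run through all 10 RAD21 rows are seen at Gata3, Tcf7, the Cd3 genes, Cd4, Cd8a and Lck, and Bcl11b has almost none.

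The second question was where else in these neighbourhoods the proteins lay. Overlapping peaks of the RAD21 lists were merged into 115 distinct sites in the windows of the 9 genes. Of these, 24 (20.9%) were called in all 10 lists, against 16.5% of all RAD21 sites, and 44 (38.3%) in 1 list only, against 46.2%. Of the 24 sites, 1 lay within 5 kb of a member's start, at Lck, and 4 in the bodies of Gata3, Tcf7 and Lck. The rest lay in the flanks, 1 of them over the 3′ end of Cd3g. All 4 NIPBL lists had a peak at 9 of the 24 and none had one at another 9. The same shares over all RAD21 sites in every list were not counted, so these counts cannot be read as particular to these genes. NIPBL peaks merged into 187 sites, of which 28 (15.0%) were in all 4 lists (9.95% of all NIPBL sites) and 122 (65.2%) in 1 list only (73.5%).

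Of the 24 RAD21 sites, the one with the highest median fold lay 13.4 kb upstream of Cd3e, between genes (chromosome 9, 44830607 to 44831575). Its fold was 13.0 and 17.8 in the block libraries, 13.4 and 18.1 in the controls, 16.2, 16.4 and 18.6 in the Ig2b deleted libraries and 11.5, 14.7 and 13.1 in the Ig2b wild type libraries. In each list it ranked above at least 96.6% of that list's peaks. No NIPBL list had a peak there. Ig2b deleted folds lay above Ig2b wild type folds without overlap, as at 12 of the 24 sites (50.0%) and 38.2% of all RAD21 sites in every list. Block and control overlapped.

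Tcf7 had the site with the next highest median fold, in an intron 20.9 kb downstream of its start (chromosome 11, 52075371 to 52076244). Its RAD21 fold was 12.1 and 18.7 in the block libraries, 11.6 and 20.3 in the controls, 17.0, 16.8 and 15.5 in the Ig2b deleted libraries and 14.1, 15.1 and 13.3 in the Ig2b wild type libraries. All 4 NIPBL lists had a peak there too, at a fold of 3.58 and 3.04 in the block libraries and 3.42 and 3.11 in the controls. It is another of those 12 sites, and block and control overlapped. Its RAD21 fold was above that of the Cd3e site in block and control replicate 2. The same held in Ig2b deleted replicates 1 and 2 and in all Ig2b wild type libraries. In the other RAD21 lists it was below, so the order of these sites differed between lists. Tcf7 had 4 more RAD21 sites in all 10 lists, at 28.9 kb in its body and at −14.5, 60.1 and 62.6 kb in the flanks, with median folds of 7.65 to 13.0. The Tcf7 start, without RAD21 itself, thus lay among 5 recurrent sites.

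Gata3 had 1 recurrent site, in an intron 10.3 kb downstream (chromosome 2, 9801058 to 9801712), shared by all 10 RAD21 and all 4 NIPBL lists and within 5 kb of the start of 4930412O13Rik. It lay 1158 bp upstream of the start of the coding transcript Gata3-001. Its RAD21 fold was 8.31 and 13.0 in the block libraries, 7.26 and 12.8 in the controls, 7.25, 9.10 and 8.03 in the Ig2b deleted libraries and 6.56, 7.80 and 4.64 in the Ig2b wild type libraries. The NIPBL fold was 8.11 and 5.19 in the block libraries and 5.00 and 4.56 in the controls, above at least 93.3% of the peaks of each list. The Ig2b deleted and wild type folds overlapped here.

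Around the Cd3 genes, which lie side by side and share most of their windows, 6 RAD21 sites were in all 10 lists. Besides the one above, they lay 5.5, 39.2 and 46.1 kb upstream of Cd3e and 40.0 and 42.5 kb downstream of it, the one at 40.0 kb at the 3′ end of Cd3g and both of the last within 5 kb of the start of Ube4a. NIPBL was in all 4 lists at 1 of the 6, 46.1 kb upstream at the start of Mpzl3, where the RAD21 fold was 3.38 to 5.83. Recurrent NIPBL was otherwise near the starts of Ube4a, Mpzl2 and Atp5l and near the 3′ end of Cd3d.

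Cd4 had 4 recurrent RAD21 sites in its flanks and none in its body. NIPBL was in all 4 lists at 3 of them, in Gpr162 28.3 kb downstream (median RAD21 fold 9.82), at Lag3 15.8 kb upstream (8.88) and near the start of Mlf2 42.5 kb upstream (8.54). Lag3, which encodes an inhibitory receptor of T cells that binds the same ligand class as CD4, is the upstream neighbour of Cd4.

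Cd8a had 2 recurrent RAD21 sites, 25.9 and 49.9 kb downstream, both inside Rmnd5a, with median folds of 6.48 and 6.16. No NIPBL list had a peak at either. No NIPBL site in the whole Cd8a window recurred in all 4 lists, and NIPBL block replicate 1 had no peak in it at all.

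Lck had 6 recurrent RAD21 sites, of which 3 had NIPBL in all 4 lists: the one at Fam167b, one 11.6 kb upstream, and one 59.0 kb downstream at Marcksl1. The strongest, 35.1 kb upstream in Dcdc2b and 2510006D16Rik (median fold 10.4), had NIPBL in both block libraries, at a fold of 4.16 and 2.99, and in neither control. How many of all sites split in this way was not counted. NIPBL block replicate 2 was the longest NIPBL list (123573 peaks) and block replicate 1 the shortest (63153 peaks). The site in the Lck body, 24.1 kb downstream (9.92), had none. Lck also had the most recurrent NIPBL sites of the 9 genes (10), among them sites near the starts of Hdac1, Eif3i and Marcksl1. One of them lay over the proximal Lck start, with a NIPBL fold of 4.48 and 3.13 in the block libraries and 2.74 and 2.78 in the controls, both controls at the lowest fold of their list. RAD21 had a peak there in 4 of 10 lists.

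Bcl11b, by far the longest of the genes (93.2 kb), had no recurrent RAD21 site. Its 193.2 kb window held RAD21 peaks in 3 of 10 lists only, with 401 and 225 covered bp in the block libraries, 0 and 180 bp in the controls and 0 bp in all 6 Ig2b libraries. NIPBL peaks there were many and mostly not shared: of 48 sites, 37 (77.1%) were in 1 list and 1 was in all 4, in the body 86.5 kb downstream of the start (fold 2.69 to 3.57).

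**Figure D3:**
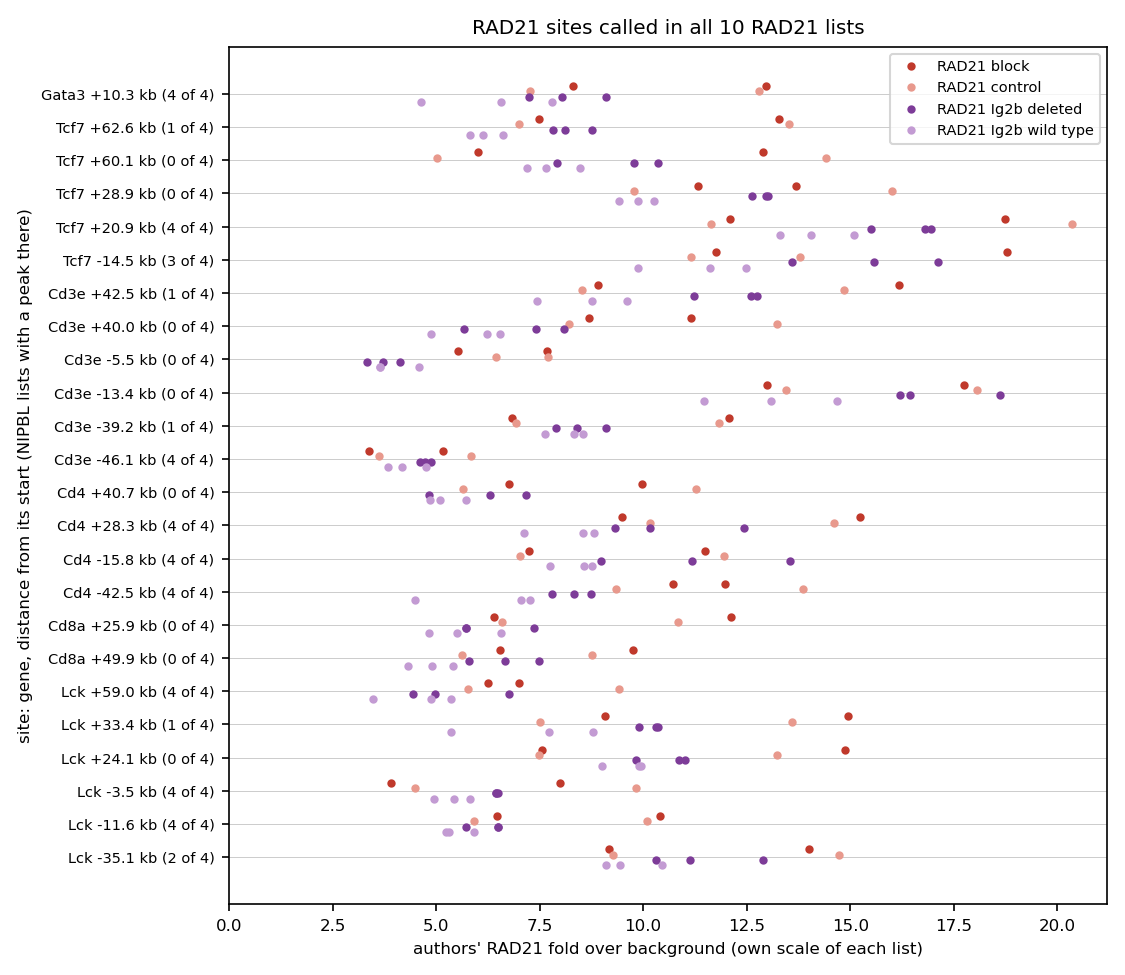
Authors' RAD21 fold at each of the 24 sites called in all 10 RAD21 lists (rows, named by gene and distance from its start, with the number of NIPBL lists that have a peak there); points are libraries, coloured by group. The sites at Tcf7 +20.9 kb and Cd3e −13.4 kb lie farthest right by their medians, at 15.3 and 15.4.

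The core of the CTCF consensus was found in the 201-base window of 14 of the 24 recurrent RAD21 sites (58.3%), against 46.6% of all 25633 RAD21 sites in every list. It was found in 6 of the 28 recurrent NIPBL sites (21.4%), against 13.9% of all 23776, and 7.28% of windows centred on all starts held it. Among the windows printed above it stood in those at Cd8a and Lck, and the strongest sites at Cd3e, Tcf7 and Gata3 held no match of these letters. Only exact matches were searched, so a window without one can still hold a near match, as the Cd3e window does on its reverse strand. Such a window is not shown to lack a CTCF site.

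As a share of the whole window, RAD21 covered 3.79% around Lck, 3.69% around Cd3e, 2.71% around Tcf7, 2.32% around Cd3g, 2.15% around Cd3d, 1.79% around Cd4, 0.647% around Cd8a, 0.556% around Gata3 and 0.0417% around Bcl11b (means over 10 lists). The median gene had 1.08%. Lck and Cd3e thus stood above 92.4% and 91.8% of all genes and Bcl11b above 11.3%. Neighbours in this order overlapped in covered bp over the 10 lists, from 2415 to 9796 bp at Lck and 2208 to 8052 bp at Cd3e to 506 to 1105 bp at Cd8a, 279 to 1266 bp at Gata3 and 0 to 401 bp at Bcl11b. Within single lists, Cd4 was above Cd8a and Gata3 above Bcl11b in every RAD21 list. No other neighbours in the order kept it in every list. NIPBL covered 4.90% around Lck, 3.58% around Cd4 and 3.24% around Tcf7, and least around Cd8a (0.203%), where the median gene had 1.31% (means over 4 lists).

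Other T lineage genes were set beside these 9. Of 28 listed, 27 had 1 annotated gene, and 10 of them had a RAD21 peak near the start in both controls (37.0%, all genes 34.3%) and 13 a NIPBL peak (48.1%, all genes 56.5%). The highest RAD21 folds in the controls were at Dtx1, a Notch pathway regulator (13.3 ± 6.39), Cd6, a T cell surface receptor (11.8 ± 2.81), Zbtb7b, the ThPOK factor of CD4 cells (9.11 ± 4.97), and Hes1, a Notch target (7.13 ± 1.41; SD, n = 2 each). The highest NIPBL folds were at Hes1 (7.05 ± 1.40), Lat (5.80 ± 2.06), Lef1 (5.73 ± 1.04) and Zbtb7b (5.15 ± 1.08; SD, n = 2 each). Among the 9 identity genes Lck was highest for both, at 7.15 ± 3.77 for RAD21 and 5.60 ± 2.46 for NIPBL (SD, n = 2 each). Foxp3, the factor of regulatory T cells, and Themis, a thymocyte signalling gene, had no peak near the start in any of the 14 lists.

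In the same controls 9 of 9 B lineage genes had RAD21 and 9 had NIPBL. Of 6 myeloid genes 1 had RAD21 and 5 had NIPBL, and of 4 erythroid genes 2 had each. The T cell identity genes had RAD21 at 22.2% (all genes 34.3%) and NIPBL at 55.6% (all genes 56.5%). These are counts over few genes, without a test.

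**Figure D4:**
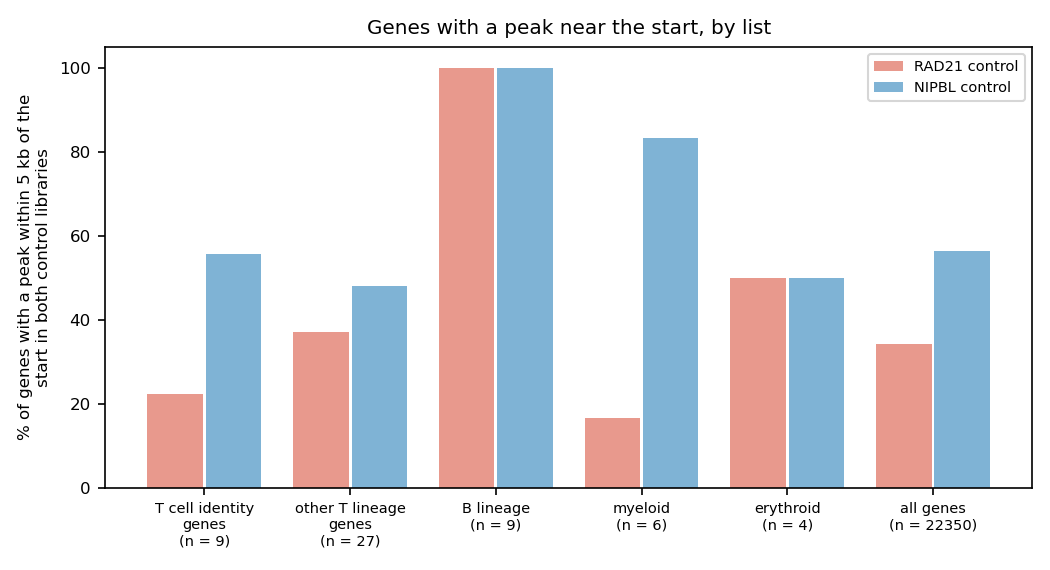
Share of genes with a peak within 5 kb of the start in both control libraries, for RAD21 (left bar) and NIPBL (right bar), in 5 gene lists and in all 22350 genes. T cell identity genes stand at 22.2% for RAD21 and 55.6% for NIPBL, and B lineage genes at 100% for both.

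By likeness of near-start coverage over the 14 lists (Euclidean distance of log2 covered bp), the genes nearest to Gata3 were Wbp2nl (0.59) and Ccdc32 (0.65), where the median gene was at 2.00. The nearest to Cd3d were Drg2 (0.83) and Sdhc (0.89; median gene 2.55), and the nearest to Lck were Hmgcll1 (0.94) and 3110002H16Rik (1.02; median gene 4.30).

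The third question was whether the block or the deletion changed cohesin or its loader at these genes. No member gained a near-start peak in all libraries of 1 group and none of the other, or lost one, in any of the 3 comparisons. Such gains and losses were rare among all genes: 0.353% and 0.0940% with the block for RAD21, 1.54% and 1.17% for NIPBL, and 0.676% and 0.0224% with the deletion. Covered bp in the gene and 50 kb on either side were then tested in 1 limma fit per comparison over all genes averaging 500 covered bp or more, on log2 of covered bp plus 500.

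For RAD21 with the block, 17589 genes were tested and limma called none (0% at an adjusted p of 0.05, and 0 at an unadjusted p under 0.05). Of the 9 genes 8 were tested, Bcl11b failing the filter. Their log2 differences ranged from −0.05 to 0.35 with a median of 0.14, and the median over all genes was 0.16. Of the 8, 6 were above 0 and 2 below; Tcf7, Cd3d and Cd3g turned negative with quantile normalization (−0.11, −0.055 and −0.11), and Gata3 and Tcf7 negative and Cd8a positive with lists matched in length (−0.044, −0.095 and 0.042). Gata3 had 1266 and 1250 covered bp in the block libraries and 646 and 1167 bp in the controls (log2 difference 0.35, SE 0.50, limma adjusted p 1.00). It was the only tested member whose groups did not overlap, against 7.24% of all genes higher without overlap and 0.648% lower. Lck had 4686 and 8849 bp in the block libraries and 2637 and 9796 bp in the controls (log2 difference 0.29, SE 0.70), where the spread between replicates was wider than the difference between groups. Peak names had the same style in libraries with the same replicate number. Covered bp of same-numbered libraries also deviated together (correlation 0.834), a spread that this fit kept in its error. Groups were therefore also compared within each number. All 9 genes were higher in block replicate 1 than in control replicate 1, as were 87.0% of all genes, in lists of 23.7 and 15.9 Mb. Of the 9, 5 were higher and 4 lower in block replicate 2 than in control replicate 2 (27.7% of all genes higher), in lists of 31.5 and 34.4 Mb.

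For NIPBL with the block, 18430 genes were tested and limma called none (0%), with 1355 (7.35%) at an unadjusted p under 0.05. Of the 9 genes 8 were tested, Cd8a failing the filter, and all 8 had a positive log2 difference, from 0.13 to 0.99, of which those of Tcf7, Cd4 and Lck turned negative with quantile normalization (−0.090, −0.20 and −0.056) and that of Cd4 with lists matched in length (−0.062). The median of the 8 was 0.28 and that of all genes 0.24. Bcl11b differed most. It had 2156 and 4691 covered bp in the block libraries and 2131 and 835 bp in the controls (log2 difference 0.99, SE 0.41, limma p 0.0405, adjusted p 0.597, higher in 2 of 2 block libraries), above 99.2% of genes. Within replicate number 1 its difference was 25 bp and within number 2 it was 3856 bp, so in the full lists it rested on the replicate 2 libraries. Those lists differed in length, with 63153 peaks in block and 94859 in control for number 1, and 123573 and 91735 for number 2. Differences within each number were not counted with lists matched in length. Without block replicate 1 the log2 difference of Bcl11b was 1.47. With lists matched in length it was 2.00 (SE 0.17, limma p 1.61e-05, adjusted p 0.192), above 99.99% of genes. At a −log10 q of at least 3 Bcl11b failed the filter. It passed the threshold in no setting that kept all libraries. Tcf7 (4529 and 4737 bp in block, 3805 and 3868 bp in control), Bcl11b and Cd3e (2457 and 2569 bp in block, 2162 and 1851 bp in control) were higher without overlap, 3 of 8 against 41.1% of all genes, and none of the 8 was lower without overlap (4.88% of all genes). Cd8a, not tested because of its low coverage, had 0 and 240 bp in block and 326 and 293 bp in control, lower without overlap. Within number 1, 3 of the 9 genes were higher in block (44.7% of all genes), in lists of 20.3 and 22.5 Mb, and within number 2, 8 were (82.6% of all genes), in lists of 29.8 and 21.6 Mb. Over all genes 98 were called without block replicate 1, 154 without block replicate 2 and 1 without control replicate 1.

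For RAD21 with the Ig2b deletion, 15477 genes were tested and limma called none (0%), with 1112 (7.18%) at an unadjusted p under 0.05. Of the 9 genes 8 were tested, 5 with a positive and 3 with a negative log2 difference, from −0.10 to 0.50 (median 0.25, all genes 0.32); Cd3e turned negative with quantile normalization (−0.26) and Cd8a positive with lists matched in length (0.048). Without Ig2b deleted replicate 3, the shortest deleted list, 3075 genes were called, 3066 of them higher, and none of the 9 was among them (Lck came closest, at a limma adjusted p of 0.0503). Lck had 4260, 5724 and 2984 covered bp in the deleted libraries and 3132, 2959 and 2415 bp in the wild type libraries (log2 difference 0.50, SE 0.28, limma adjusted p 0.546). Tcf7 had 3464, 3555 and 2306 bp in the deleted libraries and 2152, 2400 and 1616 bp in the wild type libraries (0.49, SE 0.26, limma adjusted p 0.546). Both overlapped between groups, as did all 8 (10.5% of all genes were higher and 0.297% lower without overlap). The deleted lists covered 18.2, 25.1 and 11.9 Mb in 60110, 75679 and 44783 peaks, and the wild type lists 14.2, 15.2 and 11.6 Mb in 50913, 56443 and 45782 peaks, so their lengths overlapped. With lists matched in length the log2 difference was 0.36 at Lck and 0.25 at Tcf7, and with quantile normalization it was 0.056 at Lck and 0.097 at Tcf7.

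**Figure D5:**
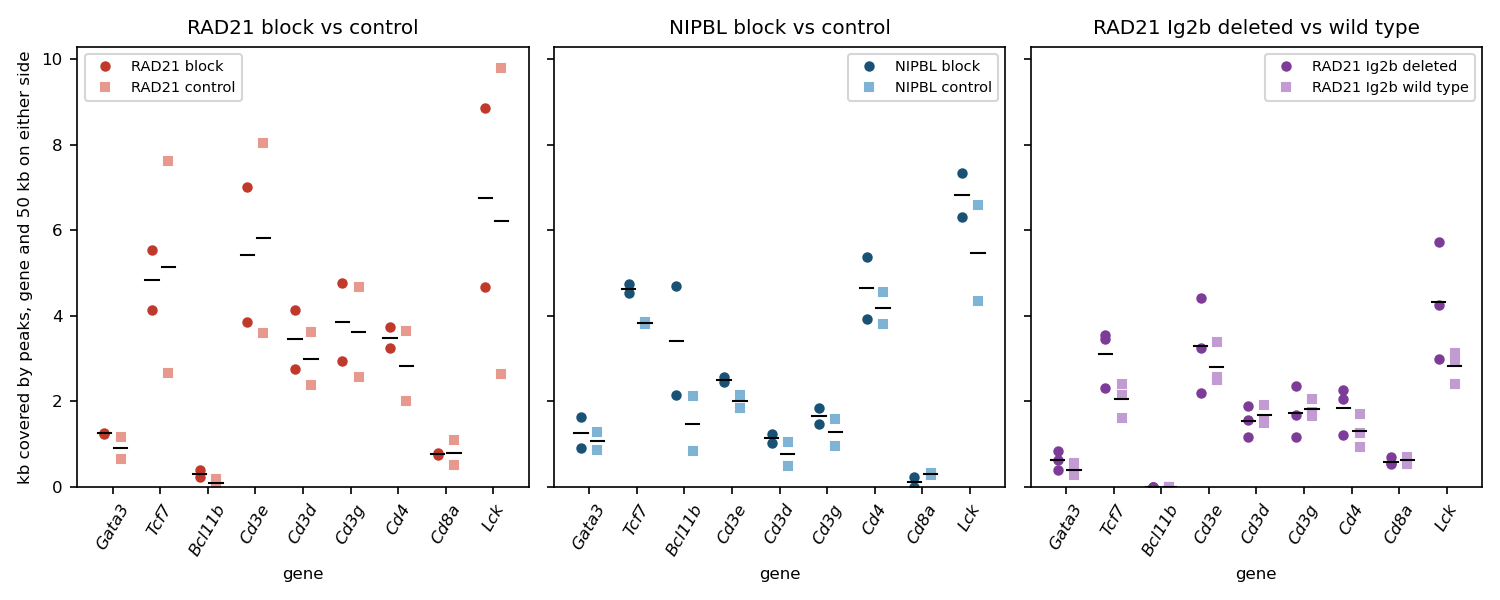
Covered kb in each T cell identity gene and 50 kb on either side, by library (points) with the group mean (line), for block left of control with RAD21 and with NIPBL and for Ig2b deleted left of wild type with RAD21. No gene passed the test in any panel, and Bcl11b has 835 to 4691 bp of NIPBL and at most 401 bp of RAD21.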

How the data were processed

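RAD21 and NIPBL were each pulled down with 5 ug of antibody after fixation in 1% formaldehyde, per the labels' protocols. Of 18 samples, the 14 with ChIP peak lists were used and 4 inputs were not. Reads were processed with Bowtie2 2.2.8, SAMtools 1.8 and MACS2 (version not given in the sources used here) against mm9, per the submitters' processing notes. The authors deposited broad peaks per library, with a fold enrichment ratio and −log10 p and q for each peak. Peak names of the dCas9 RAD21 and NIPBL lists name a control library. Those of the Ig2b lists name none and say that duplicates were removed, so these lists were made in another way. Deleted and wild type lists were tested only against each other. Counts, medians and means over all 10 RAD21 lists take them together with the dCas9 lists. How the difference in calling moves their folds was not tested. The lists hold no read counts, so depth is unknown and its precision cannot be stated.

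From these files, peaks were assigned to genes of GENCODE vM1 by an overlap of at least 1 bp (Python 3.11.15, pandas 2.3.3). Overlapping peaks of 1 protein were merged into sites. Covered bp were tested with limma 3.58.1 in R 4.3.3 with Benjamini-Hochberg adjustment, 2-sided, on log2(bp + 500), for genes with a mean of at least 500 bp; differences are the first group minus the second and are understated for low genes. The procedure was tested on simulated data, with differences larger than those of the members in the main fits. It thus does not show that differences of their size would be called. Alternatives were the replicate number as a block, a −log10 q of at least 3, lists matched in length, quantile normalization, 100 bp added, no filter, 20 kb flanks, the 10 kb start window, a 1 kb limit, any annotated transcript start, the peak middle, and leaving out each library.

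The 9 genes, the other gene lists and the tests were chosen with earlier results of these data known. Every member is named. Other T lineage genes are named for the 4 highest folds per protein in both controls, or for no near-start peak in any list. The 2 genes most alike are named for members with near-start peaks in at least 7 lists. Of the 28 other T lineage genes, 1 (Ptcra) had no match in the annotation. The B lineage list was shortened by 1 gene, which is not reported here, so its counts are over 9 genes. Sequences were read from the mm9 reference, and windows that touch an annotated UTR are not shown.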

Additional observations from a re-analysis of the deposited data

How the results depend on the processing

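Depth is unknown, and with 2 or 3 libraries a group a missing call does not show that values were alike. Replicate numbers were not taken as pairs in the main fits. The correlation of same-numbered deviations was 0.124 for NIPBL and 0.0340 to 0.268 for Ig2b. For RAD21 with the block it was 0.834. With 2 libraries a group, the value between different numbers is the same with its sign turned and adds nothing. The main RAD21 block fit thus kept a spread shared by replicate number in its error. With a replicate block limma called 0 genes in each comparison (178, 950 and 4864 at an unadjusted p under 0.05, in that order) and changed no call of the 9 genes. Leaving out single libraries gave 0 to 0 called genes for RAD21 with the block, 0 to 154 for NIPBL and 0 to 3075 for Ig2b, where 1 was called without wild type replicate 2. For Ig2b, 22 genes were called at a −log10 q of at least 3, 17 with lists matched in length, 147 with quantile normalization and 2 with 100 bp added; the cause was not tested. Quantile normalization moved the median of all genes to −0.0087, 0.0069 and −0.0097 in the 3 comparisons. It split the unadjusted calls into 719 higher and 699 lower for NIPBL (1179 and 176 without it) and 911 and 667 for Ig2b (1078 and 34 without it).

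At a −log10 q of at least 3, members with a near-start peak in every library were 2 in RAD21 control. They were 1 in RAD21 block, Ig2b deleted, Ig2b wild type, NIPBL block and NIPBL control. Within 1 kb they were 1 in RAD21 block, control and Ig2b deleted, 0 in Ig2b wild type, and 2 in NIPBL block and control. From any transcript start they were 4 in Ig2b wild type, and with lists matched in length 2 in NIPBL control. With a library left out they were 3 to 3 in RAD21 block, 2 to 3 in RAD21 control, Ig2b deleted and Ig2b wild type, 5 to 6 in NIPBL block and 6 to 7 in NIPBL control.

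Under other settings 23 member log2 differences changed sign and 142 did not, all of them uncalled. For RAD21 with the block, these were Tcf7 −0.20, Cd3d −0.028, Cd3g −0.047, Cd8a 0.12 and Lck −0.037 at a −log10 q of at least 3. They were Gata3 −0.044, Tcf7 −0.095 and Cd8a 0.042 with lists matched in length, and Tcf7 −0.11, Cd3d −0.055 and Cd3g −0.11 with quantile normalization. Cd8a was at 0.017 with 100 bp added and Cd3e at 0.13 with 20 kb flanks. For NIPBL they were Cd4 −0.062 with lists matched in length, Tcf7 −0.090, Cd4 −0.20 and Lck −0.056 with quantile normalization, and Tcf7 −0.029 in the 10 kb window. For Ig2b they were Cd3g 0.011 and Cd8a 0.21 at a −log10 q of at least 3, Cd8a 0.048 with lists matched in length, Cd3e −0.26 with quantile normalization and Cd3e −0.21 with 20 kb flanks.

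With a library left out, 19 member differences changed sign. For RAD21 with the block the ranges were −0.62 to 0.74 at Tcf7, −0.58 to 0.48 at Cd3e, −0.079 to 0.43 at Cd3d, −0.28 to 0.48 at Cd3g, −0.053 to 0.66 at Cd4, −0.34 to 0.33 at Cd8a and −0.56 to 1.15 at Lck. For NIPBL they were −0.16 to 0.45 at Gata3, −0.081 to 0.33 at Cd4 and 0.50 to 1.48 at Bcl11b. For Ig2b they were −0.047 to 0.38 at Cd3e, −0.22 to 0.042 at Cd3d and −0.28 to 0.10 at Cd3g.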
